A study of Mus musculus with 32 samples.

Results

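The genes described here handle fatty acids in the atria of mice: they take fatty acids up, activate them and pass them into mitochondria, oxidise them there, or store them as triglyceride and release them again. The set names 41 genes, listed by these roles. Of these, 39 had a probe set that the platform annotation gives to that gene alone, out of 19938 genes named in this way, and the brightest such probe set stood for the gene. All 39 were bright enough to enter the 15219 genes tested. Acsl1 and Cpt1b, whose products activate long-chain fatty acids and load them onto carnitine, were not analysed here.

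Heart muscle draws most of its energy from fatty acids. Lipoprotein lipase frees them in the capillaries, CD36 and the fatty acid binding proteins carry them into the cell, acyl-CoA synthetases activate them, and the carnitine shuttle moves them into mitochondria. There beta oxidation shortens the chain in repeated rounds of dehydrogenation, hydration, dehydrogenation and thiolysis, and electron transfer flavoprotein hands part of the electrons to the respiratory chain. A share of the fatty acids is stored in lipid droplets and released by lipases.

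Transcript levels were measured on 32 arrays, 1 each for the left and the right atrium of 16 mice. All mice were on a mixed background of C57BL/6 and FVB/N. The genotypes, with 4 mice each, were Ntg, a control without a transgene; Mst1, which carries a transgene of that Hippo pathway kinase; dnPI3K, whose transgene is a phosphoinositide 3-kinase acting as a dominant negative; and dnPI3K-Mst1, which carries both. The age and sex of the mice, the promoters that drive the transgenes and the number of founder lines are not given in the labels. Values are log2 signals, an animal's value is the mean of its atria, animals are given in order of their number, and changes are differences of genotype means with limma's standard error (SE) and Benjamini-Hochberg adjusted p over all genes tested. A gene was called at an adjusted p under 0.05.

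The arrays had medians between 5.51 and 5.68 log2. Stk4, the gene of Mst1, averaged 8.25 ± 0.09 log2 (SD, n = 4) in Mst1 and 8.33 ± 0.11 in dnPI3K-Mst1, above Ntg (7.54 ± 0.11) and dnPI3K (7.61 ± 0.13). Adipoq, the gene of the fat cell hormone adiponectin, had a median of 3.90 log2 over the arrays and lay more than 1 log2 above it on 6. It was highest on the left array of Ntg 1301, at 7.85, and on the right array of dnPI3K-Mst1 1650, at 7.79. Of the other 4, Ntg 1834 right read 5.66, Ntg 1662 right 4.97, Mst1 1466 left 5.72 and dnPI3K 1648 left 5.37. On 4 arrays the mean correlation with the rest was under 0.97, the lowest being Mst1 1466 left at 0.949. Calls against Ntg that changed without the arrays of high Adipoq, or without the 4 that stood apart, are given where the gene is described. In those settings an animal with 1 array left out is represented by its other atrium alone. Bmp10, a gene known from the right atrium, was higher on the array labelled left, except in Ntg 1301, Ntg 1662 and Mst1 1839. The mix of arrays on a labelled side thus differs between genotypes, and fits on 1 side do not fully separate genotype from atrium.

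Mst1 atria held lower transcript levels of most of the listed genes in each role. The set was chosen with earlier results of these data known, so its counts are no independent test of the pathway. Of 88 other genes of the same pathways, 40 fell in Mst1 against Ntg, as given below. Their lists were chosen with the same knowledge, so this count is no independent test either. Against Ntg, 35 of the 39 genes fell, 0 rose and 4 were not called, where 14.2% of all genes tested fell and 12.6% rose. The median change was -0.87 log2, against -0.00 over all genes. In 33 genes every Mst1 animal lay below every Ntg animal, a separation seen downward in 14.6% of all genes. The 4 genes not called were Angptl4 (0.14 ± 0.21 log2), Cpt1a (0.13 ± 0.16), Acot1 (-0.11 ± 0.14) and Dgat1 (-0.09 ± 0.10). In dnPI3K-Mst1 against Ntg, 33 of 39 fell and 0 rose, where 14.2% of all genes fell and 16.4% rose. With each array centred on its median, 2543 genes fell and 1898 rose there, in place of 2155 and 2503. The median change of the 39 genes was -0.95 log2, and 31 were separated downward and 0 upward, against 15.1% and 18.4% of all genes. The 6 not called were the same 4 together with Fabp5 (-0.40 ± 0.18) and Lipe (-0.46 ± 0.18). Both comparisons share the Ntg animals.

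**Figure D1:**
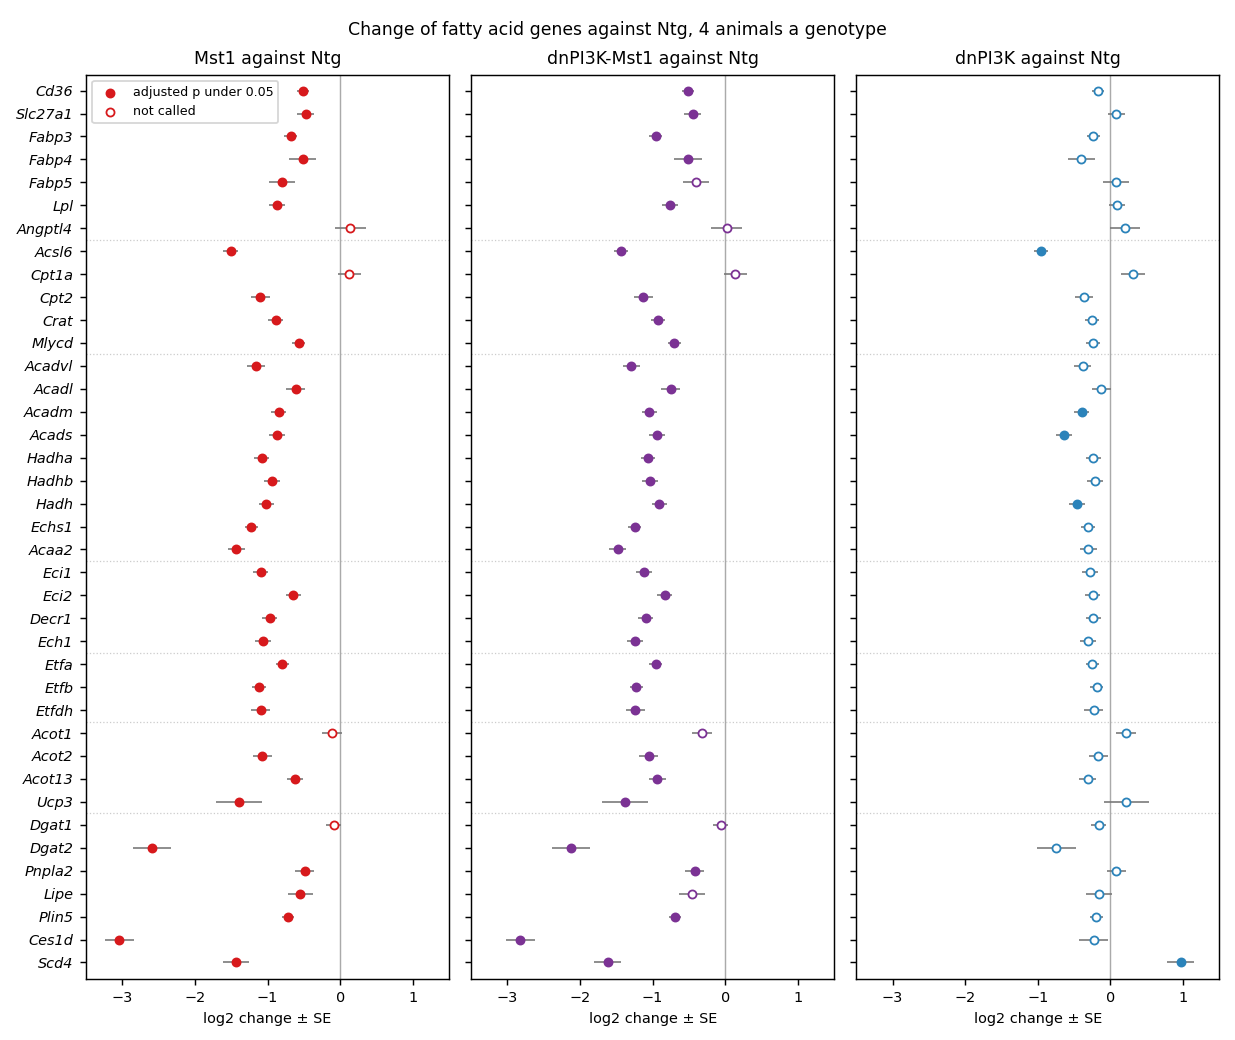
Change of the 39 genes against Ntg on the log2 scale, 1 row per gene, with bars for the SE (4 animals a genotype); filled points had an adjusted p under 0.05, and dotted lines separate uptake, activation and carnitine shuttle, beta oxidation, enzymes for unsaturated chains, electron transfer flavoprotein, thioesterases and uncoupling, and storage. In Mst1 35 points and in dnPI3K-Mst1 33 points lie below 0 and are filled, while in dnPI3K 5 are filled, 4 below 0 and 1, Scd4, above.

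Dividing the set by role, the genes of beta oxidation proper fell as a whole and those of uptake fell least. In Mst1 against Ntg, 9 of 9 core beta oxidation genes fell (median -1.01 log2), 4 of 4 for unsaturated chains (-1.02), 3 of 3 for electron transfer flavoprotein (-1.10), 4 of 5 for activation and the carnitine shuttle (-0.89), 3 of 4 thioesterase and uncoupling genes (-0.84), 6 of 7 for storage and lipolysis (-0.71) and 6 of 7 for uptake (-0.51). The differences between these medians were not tested. Animal by animal, the median deviation of the 39 genes from the Ntg mean was -1.05, -0.88, -0.85 and -0.90 log2 in Mst1, and -0.81, -1.19, -0.98 and -0.84 in dnPI3K-Mst1. It was -0.26, -0.38, -0.19 and -0.08 in dnPI3K, and between -0.11 and 0.06 in Ntg. The animals carrying Mst1 thus stood apart from all 8 others. A Mst1 animal had 33 to 36 of the 39 genes below the lowest Ntg animal, a dnPI3K-Mst1 animal 32 to 36, and a dnPI3K animal 16 to 27. Above the highest Ntg animal these counts were 0 to 2, 0 to 1 and 2 to 5. The same counts over all genes tested were not made, so no share stands beside them.

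**Figure D2:**
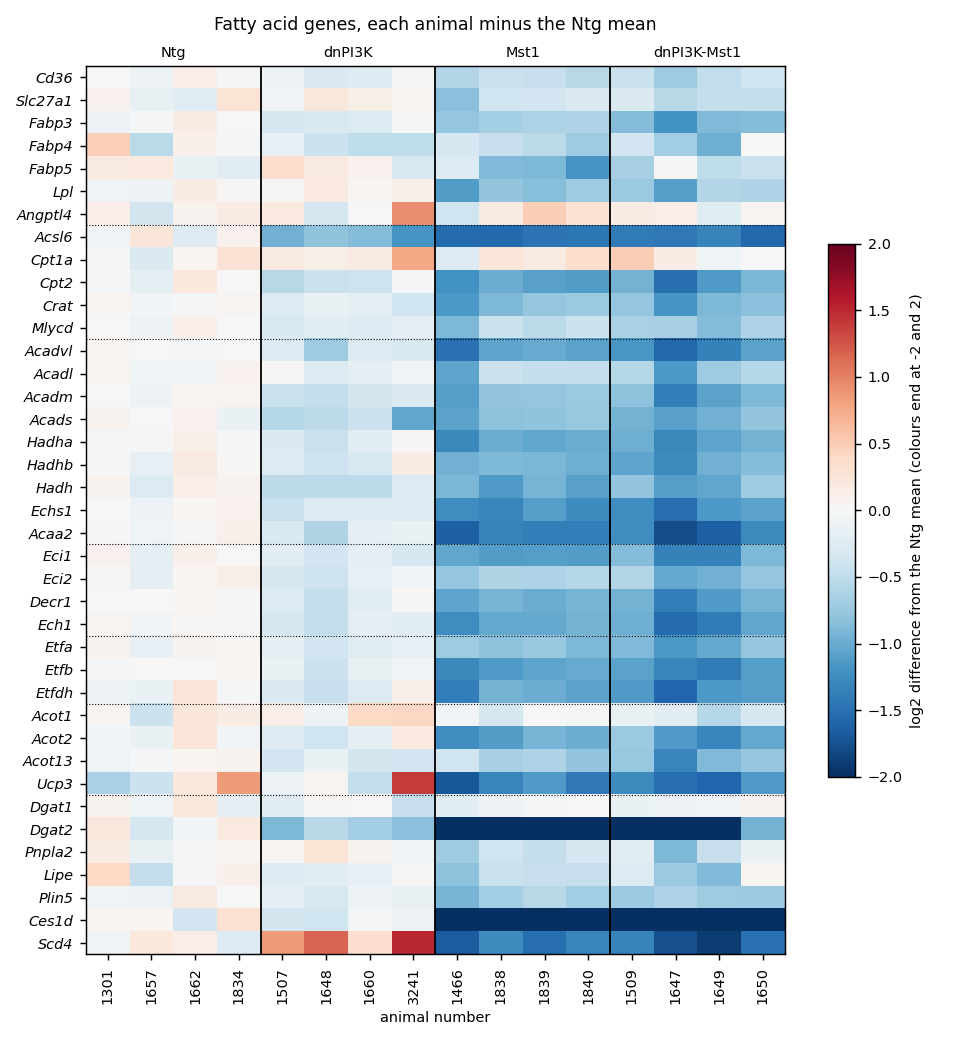
Each animal's log2 level of the 39 genes minus the Ntg mean, 1 column per animal and 1 row per gene, in the same order of roles; blue is lower and red higher, and colours end at a difference of 2 log2. The 8 columns of Mst1 and dnPI3K-Mst1 are blue in nearly every row, and the rows of Angptl4, Cpt1a, Acot1 and Dgat1 stay pale in Mst1. The dnPI3K columns are mostly pale blue, with Acsl6 and Dgat2 deeper blue and Scd4 in red. Animal dnPI3K 3241 is also red for Ucp3, Angptl4 and Cpt1a.

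Uptake begins with lipoprotein lipase, encoded by Lpl, which frees fatty acids from circulating triglyceride. Its log2 signal was 10.99, 10.96, 11.20 and 11.07 in the Ntg animals and 9.94, 10.26, 10.20 and 10.35 in Mst1. The dnPI3K animals read 11.09, 11.24, 11.10 and 11.16, and the dnPI3K-Mst1 animals 10.31, 9.95, 10.47 and 10.44. Every animal with Mst1 lay below every animal without it, and dnPI3K overlapped Ntg. The fall was 1.82-fold in Mst1 (-0.87 ± 0.11 log2, adjusted p = 3.9e-06) and 1.70-fold in dnPI3K-Mst1 (-0.76 ± 0.11, adjusted p = 1.3e-05). Angptl4, whose product inhibits this lipase, was not called in any genotype against Ntg. Its largest change was 0.20 ± 0.21 log2, in dnPI3K, where the 4 animals ranged from 5.60 to 6.87.

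Cd36, the main fatty acid transporter of the heart muscle membrane, read 11.25, 11.16, 11.39 and 11.24 log2 in Ntg and 10.68, 10.81, 10.79 and 10.70 in Mst1. The dnPI3K-Mst1 animals read 10.82, 10.55, 10.76 and 10.86, so both genotypes with Mst1 lay below Ntg in every animal. The fall was 1.43-fold in each (-0.51 ± 0.08 log2, adjusted p = 8.0e-05 in Mst1 and 6.9e-05 in dnPI3K-Mst1). Slc27a1, the gene of the transport protein FATP1, fell by 0.47 ± 0.12 log2 in Mst1 (adjusted p = 0.0054) and by 0.45 ± 0.12 in dnPI3K-Mst1 (adjusted p = 0.0070).

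Among the binding proteins, Fabp3 encodes the heart form that carries fatty acids through the cytosol. Its log2 signal was 11.67, 11.77, 11.93 and 11.78 in Ntg, 11.01, 11.10, 11.16 and 11.16 in Mst1, and 10.92, 10.59, 10.90 and 10.92 in dnPI3K-Mst1. The groups did not overlap, and the fall was 1.60-fold in Mst1 and 1.94-fold in dnPI3K-Mst1 (-0.68 ± 0.09 and -0.95 ± 0.09 log2, adjusted p = 8.9e-06 and 1.1e-07). A second probe set of Fabp3 gave -0.70 and -0.99. Fabp5, the epidermal form, averaged 7.64 ± 0.22 log2 in Ntg and 6.83 ± 0.38 in Mst1 (SD, n = 4). The dnPI3K animals averaged 7.71 ± 0.29 and those of dnPI3K-Mst1 7.24 ± 0.29. It fell in Mst1 (-0.81 ± 0.18, adjusted p = 0.0018) and was not called in dnPI3K-Mst1 (adjusted p = 0.099). There it was called without the 4 arrays that stood apart (-0.40, adjusted p = 0.041), without Mst1 1466 (-0.40, adjusted p = 0.045) or dnPI3K-Mst1 1647 (-0.54, adjusted p = 0.030), and in Mst1 it was not called on arrays labelled left (-0.57, adjusted p = 0.17).

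Fabp4, the form of fat cells and capillary endothelium, had animals that overlapped between genotypes: 9.26 to 10.26 log2 in Ntg, 9.08 to 9.46 in Mst1 and 8.81 to 9.79 in dnPI3K-Mst1. Its change of -0.51 ± 0.19 log2 in both was just past the threshold (adjusted p = 0.048 and 0.043) and was lost in 17 of 25 alternatives in Mst1 and 12 in dnPI3K-Mst1, quantile normalisation among them. Without animal Ntg 1301, which carries an array of high Adipoq, it was -0.36 in each and not called (adjusted p = 0.18 and 0.16). Without all 6 arrays of high Adipoq it was -0.62 in Mst1 and -0.61 in dnPI3K-Mst1 (adjusted p = 0.012 in both). The members of the Fabp family resemble each other in sequence, so cross-hybridisation between their probes was not tested.

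Activation and entry into mitochondria involve acyl-CoA synthetases, the carnitine palmitoyltransferases and their regulators. Acsl6, a long-chain acyl-CoA synthetase, read 5.97, 6.29, 5.78 and 6.13 log2 in Ntg and 5.08, 5.24, 5.17 and 4.86 in dnPI3K. The Mst1 animals read 4.50, 4.49, 4.56 and 4.59, and those with both transgenes 4.63, 4.61, 4.71 and 4.48. All 3 genotypes lay below Ntg in every animal, and dnPI3K lay between Ntg and the animals with Mst1. The dnPI3K change was -0.95 ± 0.10 log2 (adjusted p = 1.2e-05), that of Mst1 -1.51 ± 0.10 (adjusted p = 1.8e-09) and that of dnPI3K-Mst1 -1.44 ± 0.10 (adjusted p = 2.5e-09). The levels with Mst1 were near 4.48, the limit below which genes were left out as too dim.

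Cpt2, the inner membrane enzyme that returns the fatty acid from carnitine to coenzyme A, read 8.68, 8.51, 8.91 and 8.68 log2 in Ntg, 7.48, 7.71, 7.61 and 7.58 in Mst1, and 7.75, 7.18, 7.56 and 7.78 in dnPI3K-Mst1. The groups were apart by more than the spread within them, with falls of 2.14-fold and 2.19-fold (-1.10 ± 0.13 and -1.13 ± 0.13 log2, adjusted p = 2.2e-06 and 1.2e-06). Crat, carnitine acetyltransferase, which buffers short acyl groups, fell by 0.89 ± 0.10 and 0.93 ± 0.10 log2. Mlycd, malonyl-CoA decarboxylase, which removes the inhibitor of carnitine palmitoyltransferase, fell by 0.57 ± 0.09 and 0.70 ± 0.09 log2. Cpt1a, an outer membrane form of that transferase, showed no call: the animals ranged from 7.97 to 8.55 log2 in Ntg, 7.99 to 8.62 in Mst1 and 8.17 to 8.75 in dnPI3K-Mst1. Its interval in Mst1 ran from -0.21 to 0.46 log2 (95% confidence), outside the falls of Cpt2 and Crat.

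All 9 core beta oxidation genes fell in both genotypes with Mst1. Acaa2, the thiolase that cuts off acetyl-CoA, read 11.12, 11.01, 11.05 and 11.20 log2 in Ntg and 9.47, 9.76, 9.72 and 9.71 in Mst1. In dnPI3K-Mst1 it read 9.86, 9.33, 9.47 and 9.82, and in dnPI3K 10.79, 10.50, 10.91 and 10.96. The animals with Mst1 lay more than 1 log2 below every Ntg animal, and dnPI3K lay just below Ntg without overlap. The fall was 2.70-fold in Mst1 and 2.79-fold in dnPI3K-Mst1 (-1.43 ± 0.12 and -1.48 ± 0.12 log2, adjusted p = 2.8e-08 and 1.4e-08), and the dnPI3K change was -0.31 ± 0.12 (adjusted p = 0.16).

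Echs1, the short-chain enoyl-CoA hydratase, read 9.44, 9.33, 9.48 and 9.53 log2 in Ntg and 8.99, 9.18, 9.18 and 9.19 in dnPI3K. The Mst1 animals read 8.21, 8.13, 8.35 and 8.19, and those with both transgenes 8.20, 7.92, 8.29 and 8.37. All 3 genotypes lay below Ntg, those with Mst1 by 2.34-fold and 2.37-fold (-1.22 ± 0.09 and -1.25 ± 0.09 log2, adjusted p = 8.0e-09 and 5.4e-09). Its change in dnPI3K was -0.31 ± 0.09 log2 (adjusted p = 0.065).

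The acyl-CoA dehydrogenases, which take the first step for chains of different length, fell in both genotypes with Mst1. Acadvl, for very long chains, fell by 1.16 ± 0.12 log2 in Mst1 and by 1.29 ± 0.12 in dnPI3K-Mst1. Acadl, for long chains, fell by 0.61 ± 0.13 and 0.75 ± 0.13, Acadm, for medium chains, by 0.85 ± 0.11 and 1.04 ± 0.11, and Acads, for short chains, by 0.87 ± 0.11 and 0.94 ± 0.11 log2. The highest adjusted p among these 8 changes was 0.0016, for Acadl in Mst1. In dnPI3K Acadvl was at -0.38 ± 0.12 (adjusted p = 0.086) and was called without the arrays of high Adipoq (-0.37, adjusted p = 0.030). Hadha and Hadhb, the subunits of the mitochondrial trifunctional protein, fell by 1.08 ± 0.10 and 0.94 ± 0.11 in Mst1 and by 1.06 ± 0.10 and 1.04 ± 0.11 in dnPI3K-Mst1. A second Hadhb probe set gave -0.95 and -1.05. Hadh, the short-chain hydroxyacyl-CoA dehydrogenase, fell by 1.01 ± 0.10 and 0.91 ± 0.10 log2.

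**Figure D3:**
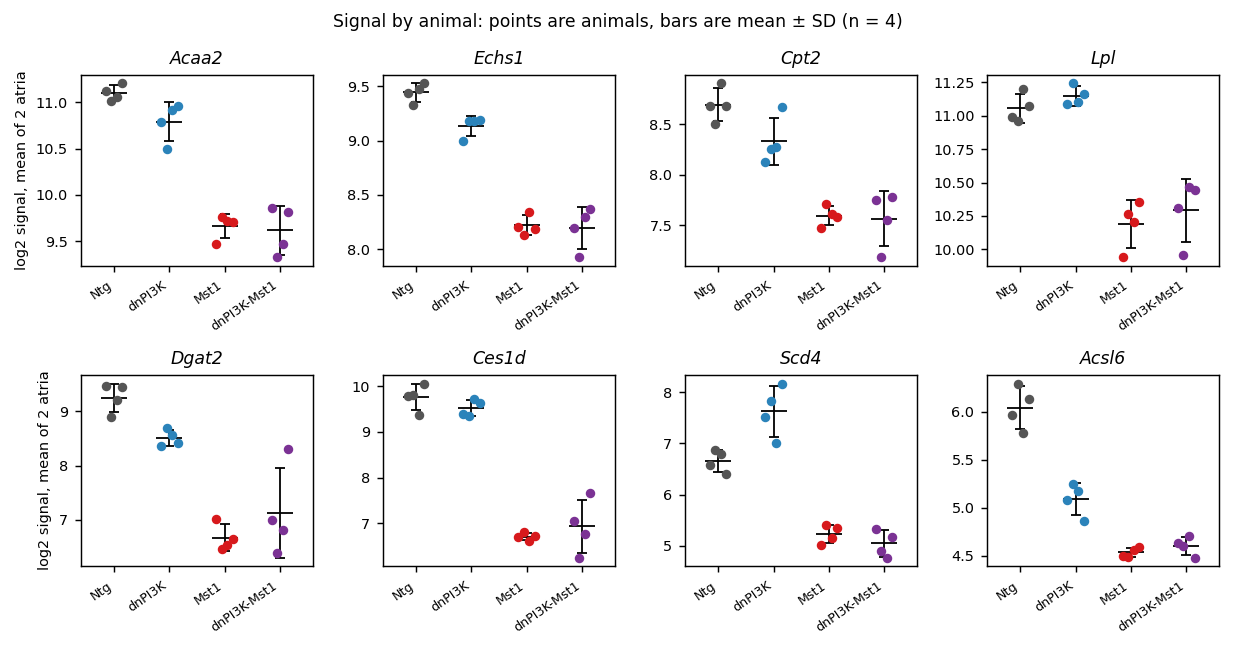
Log2 signal of 8 of the genes in each animal (points, mean of the left and right atrium), by genotype, with the mean and SD of 4 animals as a line and bars; each panel has its own axis, which does not start at 0. In all 8 panels the Mst1 animals lie below the Ntg animals; Acsl6 falls in dnPI3K as well, Scd4 rises there, and 1 dnPI3K-Mst1 animal, 1650, stands high for Dgat2 and Ces1d.

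Enzymes that prepare unsaturated fatty acids for beta oxidation moved with the core. Ech1, a dienoyl-CoA isomerase, read 10.82, 10.71, 10.80 and 10.75 log2 in Ntg and 9.52, 9.74, 9.74 and 9.82 in Mst1. The groups did not overlap, and the fall was 2.09-fold (-1.06 ± 0.11 log2, adjusted p = 5.2e-07). In dnPI3K-Mst1 it fell 2.36-fold. Eci1 and Eci2, enoyl-CoA isomerases, fell by 1.10 ± 0.11 and 0.64 ± 0.10 log2 in Mst1, and Decr1, the mitochondrial dienoyl-CoA reductase, by 0.97 ± 0.10. In dnPI3K-Mst1 these 3 fell by 1.12 ± 0.11, 0.83 ± 0.10 and 1.09 ± 0.10 log2.

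Electron transfer flavoprotein consists of the products of Etfa and Etfb, and Etfdh encodes the oxidoreductase that passes its electrons to ubiquinone. Etfb had the narrowest spread in Ntg, at 10.12, 10.13, 10.14 and 10.17 log2. It read 10.01, 9.72, 10.00 and 10.08 in dnPI3K. The Mst1 animals read 8.86, 9.01, 9.08 and 9.13, and those with both transgenes 9.08, 8.83, 8.73 and 9.04. Animals with Mst1 were again below all others, by 2.17-fold in Mst1 and 2.34-fold in dnPI3K-Mst1 (-1.12 ± 0.09 and -1.22 ± 0.09 log2, adjusted p = 3.5e-08 and 8.7e-09). Etfa fell by 0.80 ± 0.09 and 0.96 ± 0.09, and Etfdh by 1.10 ± 0.13 and 1.24 ± 0.13 log2.

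Thioesterases release free fatty acids from coenzyme A. Acot2, the mitochondrial form, read 8.71, 8.63, 9.00 and 8.71 log2 in Ntg, 7.52, 7.65, 7.82 and 7.77 in Mst1, and 8.01, 7.64, 7.45 and 7.73 in dnPI3K-Mst1. Both genotypes lay below Ntg without overlap, by 2.10-fold and 2.08-fold (-1.07 ± 0.13 and -1.05 ± 0.13 log2, adjusted p = 2.9e-06 and 2.6e-06). Acot1, its cytosolic relative of near-identical sequence, averaged 5.12 ± 0.30 in Ntg, 5.01 ± 0.16 in Mst1 and 4.80 ± 0.19 in dnPI3K-Mst1, and was not called (adjusted p = 0.64 and 0.095). How far the probes of Acot1 and Acot2 read each other's transcripts was not tested. Acot13, a small mitochondria-associated thioesterase, fell by 0.62 ± 0.11 and 0.93 ± 0.11 log2.

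Ucp3, an uncoupling protein of muscle mitochondria, varied widely among animals without Mst1. It read 5.66, 5.88, 6.54 and 7.16 log2 in Ntg and 6.20, 6.37, 5.84 and 7.71 in dnPI3K. The Mst1 animals read 4.62, 4.99, 5.18 and 4.88, and those with both transgenes 5.03, 4.79, 4.72 and 5.17. The animals with Mst1 lay below all others. The fall was 2.62-fold in Mst1 and 2.60-fold in dnPI3K-Mst1 (-1.39 ± 0.32 and -1.38 ± 0.32 log2, adjusted p = 0.0023 and 0.0022).

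Storage and lipolysis held both the largest falls and the only called rise. Ces1d, a carboxylesterase that hydrolyses triglyceride, read 9.79, 9.80, 9.37 and 10.06 log2 in Ntg and 9.39, 9.35, 9.72 and 9.64 in dnPI3K. It read 6.70, 6.81, 6.61 and 6.72 in Mst1 and 7.04, 6.25, 6.78 and 7.66 in dnPI3K-Mst1. The animals with Mst1 were thus below all others by a wide margin, 8.24-fold in Mst1 and 7.06-fold in dnPI3K-Mst1 (-3.04 ± 0.20 and -2.82 ± 0.20 log2, adjusted p = 1.6e-09 and 3.3e-09). In dnPI3K the change was -0.23 ± 0.20 (adjusted p = 0.63). The mouse has several near-identical Ces1 genes, and the share of their transcripts in this signal was not tested.

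Dgat2, a diacylglycerol acyltransferase that completes triglyceride, read 9.46, 8.90, 9.21 and 9.44 log2 in Ntg, 8.36, 8.70, 8.57 and 8.42 in dnPI3K, and 7.02, 6.46, 6.54 and 6.65 in Mst1. In dnPI3K-Mst1 it read 6.99, 6.39, 6.82 and 8.31, the last being animal 1650. All 3 genotypes lay below every Ntg animal. The fall was 6.01-fold in Mst1 and 4.37-fold in dnPI3K-Mst1 (-2.59 ± 0.26 and -2.13 ± 0.26 log2, adjusted p = 4.0e-07 and 3.4e-06). In dnPI3K it was -0.74 ± 0.26 and not called (adjusted p = 0.13). Without the 6 arrays of high Adipoq the dnPI3K change was -0.65 and was called (adjusted p = 0.0035), and so it was without animal dnPI3K-Mst1 1650, at -0.74 (adjusted p = 0.0066). Dgat1, the other enzyme for this step, was not called in any genotype, its Mst1 interval running from -0.31 to 0.13 log2 (95% confidence).

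Scd4, the stearoyl-CoA desaturase isoform known from the mouse heart, went in opposite directions. It read 6.59, 6.87, 6.80 and 6.40 log2 in Ntg and 7.51, 7.83, 7.01 and 8.17 in dnPI3K. The Mst1 animals read 5.01, 5.40, 5.15 and 5.35, and those with both transgenes 5.33, 4.90, 4.77 and 5.17. Every dnPI3K animal was above Ntg, and every animal with Mst1 was below it. The rise in dnPI3K was 1.95-fold (0.97 ± 0.18 log2, adjusted p = 0.0041), and the falls were 2.70-fold in Mst1 and 3.07-fold in dnPI3K-Mst1 (-1.43 ± 0.18 and -1.62 ± 0.18, adjusted p = 6.6e-06 and 1.2e-06). Tested directly, Mst1 was 5.28-fold below dnPI3K (-2.40 ± 0.18 log2, adjusted p = 1.8e-08). On the arrays labelled left alone the dnPI3K rise was 0.51 log2 and not called (adjusted p = 0.24). On those labelled right alone it was 1.42 log2 and called. Scd4 has close relatives on the array, and reading of their transcripts by its probes was not tested.

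The lipases and droplet proteins changed less. Pnpla2, adipose triglyceride lipase, read 9.44, 9.14, 9.25 and 9.34 log2 in Ntg and 8.58, 8.89, 8.81 and 8.94 in Mst1, with no overlap. It fell by 0.49 ± 0.13 in Mst1 (adjusted p = 0.0088) and by 0.42 ± 0.13 in dnPI3K-Mst1 (adjusted p = 0.020), where the animals overlapped Ntg. The latter was not called without Ntg 1301 (-0.37, adjusted p = 0.060) or without dnPI3K-Mst1 1647 (-0.26, adjusted p = 0.080). Plin5, a lipid droplet protein of oxidative tissue, fell by 0.71 ± 0.08 and 0.69 ± 0.08 log2 (adjusted p = 2.7e-06 and 2.9e-06).

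Lipe, hormone-sensitive lipase, overlapped between genotypes: 7.13 to 8.01 log2 in Ntg, 6.77 to 7.16 in Mst1 and 6.72 to 7.64 in dnPI3K-Mst1. It fell by 0.55 ± 0.18 in Mst1 (adjusted p = 0.027). That call was lost in 7 of 25 alternatives, among them the arrays labelled left alone and those labelled right alone. The others were without Ntg 1301 (-0.41, adjusted p = 0.11), without Mst1 1466 (-0.45, adjusted p = 0.072), without Ntg 1834 (-0.51, adjusted p = 0.067), without the arrays of high Adipoq (-0.35, adjusted p = 0.072) and without the 4 arrays that stood apart (-0.49, adjusted p = 0.068). In dnPI3K-Mst1 Lipe was called in 7 of 25 alternatives, among them the one without the arrays of high Adipoq (-0.42, adjusted p = 0.030) and those without dnPI3K-Mst1 1650 (-0.63, adjusted p = 0.0083), Ntg 1657 (-0.62, adjusted p = 0.011) or Mst1 1466 (-0.46, adjusted p = 0.044).

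Several of these genes were high on the arrays with the highest Adipoq, and the part of fat tissue in this was not tested. On the left array of Ntg 1301, 6 of the 39 genes exceeded the other 7 Ntg arrays: Fabp4 (10.48 log2), Dgat2 (9.94), Lipe (8.33), Pnpla2 (9.60), Eci1 (9.40) and Dgat1 (7.30). Its Plin1, a droplet protein of fat cells, read 7.40 against 5.21 to 6.24 on those 7. On the right array of dnPI3K-Mst1 1650, 24 genes exceeded the other 7 arrays of that genotype and 1, Acsl6, lay below them. Dgat2 read 9.70 there and 6.21 to 7.03 on the others, Ces1d 8.14 against 5.52 to 7.37, and Fabp4 10.14 against 8.26 to 9.73. Without the 6 arrays of high Adipoq, 34 of 39 genes fell in Mst1, 34 fell in dnPI3K-Mst1, and in dnPI3K 5 fell and 1 rose. Dgat2 was then -2.53 log2 and Ces1d -3.11 in Mst1, and -2.33 and -2.91 in dnPI3K-Mst1.

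**Figure D4:**
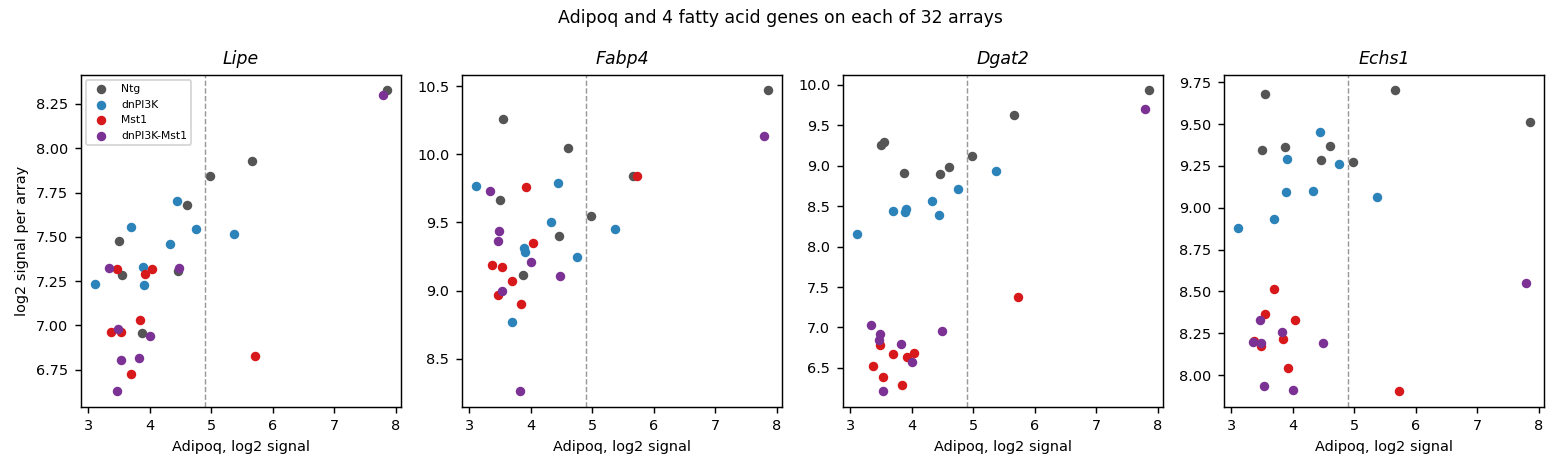
Adipoq (horizontal axis, log2 signal) and 4 of the genes (vertical axes, log2 signal) on each of the 32 arrays, coloured by genotype; the dashed line lies 1 log2 above the Adipoq median of 3.90. The arrays with Adipoq at 7.85 and 7.79 have the highest Lipe, and for Dgat2 the dnPI3K-Mst1 array stands with the Ntg arrays, while Echs1 is lower on every array with Mst1 than on every array without it.

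Some markers of other cell types and of the myocytes themselves also differed between genotypes. Of all genes tested 14.2% fell in each genotype with Mst1, while 12.6% rose in Mst1 and 16.4% in dnPI3K-Mst1. Of 12 cardiac myocyte markers, 4 fell in Mst1 and 7 in dnPI3K-Mst1, with medians of -0.24 and -0.30 log2. Tcap (-0.84 ± 0.13) and Tnni3 (-0.73 ± 0.09), of the sarcomere, fell furthest in Mst1. The summed myocyte signal was 15.11 to 15.49 log2 in Mst1 and 15.20 to 15.45 in dnPI3K-Mst1, against 15.52 to 15.66 in Ntg and 15.49 to 15.56 in dnPI3K. In bulk tissue, fewer cells of a type and less RNA per cell cannot be told apart. Of 12 endothelial markers, 6 fell and 1 rose in Mst1, while 2 fell, near the share of all genes, and 3 rose in dnPI3K-Mst1. Their sum was 12.68 to 13.12 log2 in Mst1 and 12.99 to 13.24 in Ntg, and with dnPI3K it was 13.08 to 13.34 alone and 13.26 to 13.47 beside Mst1.

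Of 9 fibroblast markers 2 rose in Mst1 and 7 in dnPI3K-Mst1, their sums running from 13.39 to 13.74 log2 in Ntg, 13.75 to 13.83 in Mst1 and 13.88 to 14.34 in dnPI3K-Mst1. Of 9 macrophage markers, 1 fell in Mst1, near the share of all genes, and 4 rose in dnPI3K-Mst1. Of 6 adipocyte markers tested 3 fell in Mst1 and 0 in dnPI3K-Mst1, with summed signals of 7.89 to 8.32 log2 in Mst1 and 8.19 to 9.36 in Ntg, and 8.06 to 9.16 in dnPI3K-Mst1 and 8.13 to 8.43 in dnPI3K. Among brown fat markers, Ucp1 averaged 5.18 ± 0.94 log2 in Ntg and 4.49 ± 0.05 in Mst1 (SD, n = 4) and was not called (-0.70 ± 0.42, adjusted p = 0.26). Of 5 brown fat markers 2 fell and 1 rose in both genotypes with Mst1, Cox7a1, which heart muscle also expresses, at -1.65 ± 0.13 in Mst1. Of 8 skeletal muscle markers 1 fell and 2 rose in Mst1, and 1 fell and 3 rose in dnPI3K-Mst1. The falls were near the share of all genes in both. The part of these markers in the changes of the fatty acid genes was not tested.

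Several regulators of fatty acid oxidation were lower as well. PPAR alpha, encoded by Ppara, binds DNA with a retinoid X receptor and switches on genes of fatty acid use, and the estrogen-related receptors act on many of the same genes. Of 22 regulators tested, 9 fell and 3 rose in Mst1, and 8 fell and 3 rose in dnPI3K-Mst1. Of all genes 14.2% fell in each, while 12.6% and 16.4% rose, so the 3 rises were near the share of all genes. Ppara ranged from 7.03 to 7.18 log2 in Ntg and 6.73 to 7.12 in dnPI3K, and from 5.96 to 6.52 in Mst1 and 5.92 to 6.70 in dnPI3K-Mst1. It fell by 0.80 ± 0.14 log2 in Mst1 (adjusted p = 0.00016) and by 0.73 ± 0.14 in dnPI3K-Mst1 (adjusted p = 0.00034). Rxrg, retinoid X receptor gamma, fell in all 3 genotypes against Ntg: its change was -1.93 ± 0.13 in Mst1, -1.79 ± 0.13 in dnPI3K-Mst1 and -0.68 ± 0.13 in dnPI3K. Esrra, estrogen-related receptor alpha, fell by 0.34 ± 0.08 and 0.44 ± 0.08 log2 in the genotypes with Mst1.

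Other regulators differed in direction. Ppargc1a, the coactivator PGC-1 alpha, was at -0.41 ± 0.15 log2 in Mst1 (adjusted p = 0.0503) and was not called against Ntg in any genotype, though Mst1 lay below dnPI3K (-0.70 ± 0.15, adjusted p = 0.0022). Pdk4, a pyruvate dehydrogenase kinase and a usual target of PPAR alpha, was not called (0.21 ± 0.30 in Mst1). Pdk2, another kinase of that complex, fell by 1.03 ± 0.11 log2 in Mst1. Pparg rose by 0.70 ± 0.13 in Mst1 and 0.51 ± 0.13 in dnPI3K-Mst1. Prkab2 and Prkag2, regulatory subunits of AMP-activated protein kinase, rose by 0.98 ± 0.14 and 0.76 ± 0.09 in Mst1.

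To see whether the members share the letters these receptors read, the 250 bases before the transcription start were searched on both strands in the RefSeq promoter table (build GRCm38.p6), which held 29 of the 41 genes. The core motif of these receptors, AGGTCA, stood in 8 of the 29 (27.6%), against 15.8% of 27025 genes with the same window. The longer form of the estrogen-related receptors, TCAAGGTCA, which contains the core motif, stood in 1 of 29, against 0.422% of genes. The direct repeat of the core spaced by 1 base (DR1), which PPAR binds with its partner, stood in 0 of 29, against 0.400%, which says only that these letters are not in these windows. The 8 genes were Acadm, Acadvl, Acsl6, Cd36, Cpt1a, Echs1, Plin5 and Ucp3. All except Cpt1a were called lower in Mst1, as were 35 of the 39 genes measured. Whether genes with the motif fell more often than those without it was not tested. Acsl6 had 3 listed starts and Plin5 2, with the motif before 1 of them in each. The stretches below are those of Echs1 and Acadvl (beta oxidation), Cd36 (uptake), Plin5 (storage), Ucp3 (uncoupling) and Acsl6, where the longer form was found. They run 5′ to 3′ on the strand of the gene, and capitals mark the match to the core motif or, in Acsl6, the longer form, which reads TGACCT or TGACCTTGA where it lies on the opposite strand. A match is a stretch of letters and no measured binding site.
Echs1, chr7:140116479-140116524, minus strand, match beginning 83 bases before the start: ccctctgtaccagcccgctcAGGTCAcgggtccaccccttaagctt
Acadvl, chr11:70015490-70015535, minus strand, 87 bases before: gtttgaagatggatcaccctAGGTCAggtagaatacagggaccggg
Cd36, chr5:17836099-17836144, minus strand, 228 bases before: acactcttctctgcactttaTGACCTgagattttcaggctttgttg
Plin5, chr17:56117693-56117738, minus strand, 170 bases before: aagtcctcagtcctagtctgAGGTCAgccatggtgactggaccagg
Ucp3, chr7:100472822-100472867, plus strand, 149 bases before: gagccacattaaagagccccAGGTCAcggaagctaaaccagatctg
Ucp3, chr7:100472927-100472972, plus strand, 44 bases before: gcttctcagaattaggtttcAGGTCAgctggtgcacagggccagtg
Acsl6, chr11:54303637-54303685, plus strand, 167 bases before: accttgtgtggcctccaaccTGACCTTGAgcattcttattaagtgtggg

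Beyond the 41 genes, 93 others of the same pathways were listed, also with earlier results of these data known, and 88 tested. In Mst1 40 fell and 9 rose, where 14.2% of all genes fell and 12.6% rose, and in dnPI3K-Mst1 32 fell and 14 rose, where 14.2% fell and 16.4% rose. The medians were -0.30 and -0.18 log2, and the rises were near the share of all genes in both. Among oxidation genes outside the core, 11 of 17 fell in Mst1, including Acad11, a peroxisomal acyl-CoA dehydrogenase (-1.07 ± 0.11), and Acat1, a mitochondrial thiolase (-1.05 ± 0.10). Among storage genes 7 of 21 fell, led by Fitm1, which helps to form lipid droplets (-1.60 ± 0.14), and Lpin1, a phosphatidate phosphatase (-1.53 ± 0.09). In uptake and activation 6 of 12 fell, including Slc25a20, the carnitine carrier (-0.79 ± 0.14), and Gpihbp1, the capillary anchor of lipoprotein lipase (-0.49 ± 0.12). Slc27a6, a fatty acid transport protein, rose (0.44 ± 0.10). Of the 3 ketone body genes tested, Bdh1 (-0.83 ± 0.18) and Oxct1 (-0.51 ± 0.09) fell. Among 13 genes of fatty acid synthesis and desaturation, 5 fell and 2 rose in Mst1 (median -0.30 log2), and 2 fell and 3 rose in dnPI3K-Mst1 (median 0.22). There Acacb, an acetyl-CoA carboxylase, fell (-0.85 ± 0.14), and Fads1, a desaturase, and Elovl1, an elongase, rose (0.67 ± 0.10 and 0.50 ± 0.10).

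The dnPI3K transgene alone was accompanied by a smaller shift. Against Ntg, 4 of the 39 genes fell and 1 rose, where 2.75% of all genes fell and 1.29% rose. With each array centred on its median these were 540 and 146 genes in all, in place of 419 and 197. The median change was -0.23 log2 and 30 of 39 lay below 0. An unadjusted limma p under 0.05 was reached by 22 of the 39, in either direction, against 2568 of the 15219 genes tested. In 14 genes every dnPI3K animal lay below every Ntg animal, against 7.7% of all genes, and in 1, Scd4, above (3.71%). The genes that fell were Acsl6 (-0.95 ± 0.10), Acads (-0.64 ± 0.11, adjusted p = 0.0019), Hadh (-0.46 ± 0.10, adjusted p = 0.016) and Acadm (-0.40 ± 0.11, adjusted p = 0.041), and Scd4 rose.

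Acads, the dehydrogenase for short chains, read 8.40, 8.32, 8.41 and 8.19 log2 in Ntg and 7.76, 7.81, 7.90 and 7.29 in dnPI3K, with no overlap. Hadh read 10.04, 9.70, 10.10 and 10.04 against 9.45, 9.44, 9.44 and 9.71, where the highest dnPI3K animal lay just above the lowest Ntg animal. Acadm read 11.36, 11.25, 11.43 and 11.42 against a range of 10.88 to 11.08 in dnPI3K, with no overlap. The count of 4 was 2 without dnPI3K 1507, without dnPI3K 1660 or without Ntg 1662. Hadh and Acadm were the genes lost, and Acadm was lost in 16 of 25 alternatives, including the one without the 4 arrays that stood apart (-0.38, adjusted p = 0.057) and the one without the arrays of high Adipoq (-0.36, adjusted p = 0.061). In those 3 settings Hadh was at an adjusted p of 0.051, 0.051 and 0.062, and Acadm at 0.10, 0.075 and 0.11. On the arrays labelled left 1 gene fell, and on those labelled right 2, where Ntg mixes arrays high and low in Bmp10 and dnPI3K does not. No uptake gene was called. In dnPI3K none of the 12 myocyte, 12 endothelial, 9 macrophage and 6 adipocyte markers tested was called. There 1 of 9 fibroblast markers rose, while 1 of 5 brown fat and 2 of 8 skeletal muscle markers fell. Over all genes 2.75% fell and 1.29% rose. Of the 88 other pathway genes 8 fell, among them Bdh1 (-1.02 ± 0.18), Me1, malic enzyme (-0.72 ± 0.11), and Lpin1 (-0.60 ± 0.09), and Prkag2 rose (0.72 ± 0.09).

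Adding dnPI3K to Mst1 left the fatty acid genes close to their level in Mst1 alone. In dnPI3K-Mst1 against Mst1, 0 of 39 genes were called, where 0.848% of all genes fell and 2.65% rose, and the median change was -0.03 log2. An unadjusted p under 0.05 was reached by 3 of the 39, against 2597 of the 15219 genes tested. The 3 were Fabp3 (-0.28 ± 0.09), the 1 gene whose animals did not overlap (3.26% of all genes), Acot13 (-0.32 ± 0.11) and Fabp5 (0.41 ± 0.18). The 95% interval lay within 0.5 log2 of 0 for 31 of the 39. The widest bounds were -0.64 for Ucp3 and 1.01 for Dgat2, so larger differences in those genes remain possible. Echs1 had an interval of -0.21 to 0.17 and Cd36 one of -0.17 to 0.17. Without the arrays of high Adipoq, Fabp5 was called higher (0.66 log2, adjusted p = 0.041), and likewise without Mst1 1466 (0.58, adjusted p = 0.042). Of the 88 other pathway genes Scd2 (0.70 ± 0.12) and Fads2 (0.57 ± 0.10), desaturases, and Lipa, lysosomal acid lipase (0.53 ± 0.14), rose, and Fitm2 (-0.42 ± 0.11) fell.

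Set against dnPI3K, both genotypes with Mst1 were lower. In dnPI3K-Mst1 against dnPI3K 32 of 39 genes fell and 0 rose (8.8% and 12.8% of all genes), with a median of -0.68 log2, and in 32 the animals did not overlap (9.8%). In Mst1 against dnPI3K 31 fell and 0 rose (10.0% and 11.8%), with a median of -0.57 log2, and in 32 the animals did not overlap (10.9%). The largest falls in the first were those of Ces1d and Scd4, both -2.59 log2, followed by Ucp3 (-1.60 ± 0.32). Acot1 fell here (-0.53 ± 0.14, adjusted p = 0.0095), though it was not called against Ntg. Acads did not pass in either (-0.30 ± 0.11 and -0.23 ± 0.11, adjusted p = 0.060 and 0.17).

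Whether the transgenes' effects add on the log2 scale was tested by the change in dnPI3K-Mst1 less the changes in Mst1 and dnPI3K. An unadjusted p under 0.05 was reached by 7 of the 39 genes, against 1657 of the 15219 tested. Of the 39, 1 was called higher and 0 lower, against 0.368% and 0.145% of all genes. The gene was Acsl6, at 1.02 ± 0.14 log2 (adjusted p = 0.0013), whose level with Mst1 was near the lower limit of the genes tested, as given above. On arrays labelled left the term was 0.97 and not called (adjusted p = 0.15). Scd4 had -1.15 ± 0.26 log2 (adjusted p = 0.051) and was called in 5 of 25 alternatives, with median centring, with the random block, and without Mst1 1466, dnPI3K-Mst1 1509 or dnPI3K 1660 (-1.36, adjusted p = 0.0043). Hadh had 0.56 ± 0.15 (adjusted p = 0.097) and was called in 2, with the random block (0.56, adjusted p = 0.038) and without Ntg 1657 (0.65, adjusted p = 0.046). Dgat2 had 1.20 ± 0.37 (adjusted p = 0.18), and 0.86 without the arrays of high Adipoq, where it was called (adjusted p = 0.033).

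Left and right atria were compared as labelled. None of the 39 genes was called, where 0.00657% of all genes were lower and 0.0% higher on the array labelled right. An unadjusted p under 0.05 was reached by 5 of the 39, against 1240 of the 15219 genes tested. The 5 were Scd4 (0.36 ± 0.07), Angptl4 (0.22 ± 0.08), Ces1d (-0.37 ± 0.14), Acsl6 (-0.17 ± 0.07) and Fabp5 (-0.30 ± 0.13). Each change is a mean over the 4 genotypes. Scd4 read 6.76 to 7.43 log2 on the dnPI3K arrays labelled left and 7.26 to 8.92 on those labelled right. These ranges were 6.21 to 6.90 and 6.53 to 7.13 in Ntg and 5.08 to 5.45 and 4.93 to 5.43 in Mst1. In dnPI3K-Mst1 they were 4.46 to 5.38 and 5.07 to 5.32. Bmp10, a gene known from the right atrium, was higher on the array labelled left in 13 of 16 animals and on that labelled right in Ntg 1301, Ntg 1662 and Mst1 1839. Its signal was 11.4 to 12.8 log2 on the higher and 3.77 to 6.64 on the lower array of an animal, so the labelled sides mix arrays that differ in this gene. Without Mst1 1839, Scd4 was called higher on the array labelled right (0.36, adjusted p = 0.017) and Fabp5 (-0.42, adjusted p = 0.033) and Ces1d (-0.48, adjusted p = 0.035) lower. Without Ntg 1301 or Ntg 1662, Scd4 was the gene called (0.38 and 0.39, adjusted p = 0.035 and 0.044).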

How the data were processed

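Each atrium's RNA was measured on its own array of the Affymetrix platform Mouse Gene 1.0 ST. The deposited values are log2 signals per probe set. The submitters' processing notes name Affymetrix Expression Console and PLIER, and the log base is taken from the range of the values, since it is not given in the sources used here. Of 35512 probe sets, 21789 name 1 gene in the platform annotation, 1621 several and 12102 none. The brightest of a gene's probe sets by its mean over all arrays was used, and genes under the 30th percentile of mean signal (4.48) were left out, leaving 15219.

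Left and right values were averaged per animal and the 4 genotypes fitted together in limma 3.58.1 (R 4.3.3) with empirical Bayes and a mean-variance trend, two-sided tests and Benjamini-Hochberg adjustment over all genes tested. Nothing in the labels says how the animals were related, so the p-values reflect only how these animals differ, and 4 per genotype limit the precision. Side was tested on the difference between an animal's arrays. The alternatives were median centring, quantile normalisation, no filter, all arrays with animal as a random block (correlation 0.1197), each side alone, leaving out arrays of high Adipoq or arrays that stand apart, and leaving out each animal.

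The fit was tested on simulated data for Mst1 against Ntg over 15219 genes: of 200 changed genes it recovered 77% at a change of 0.5 log2, 98.5% at 1 and 100% at 2, with 7, 11 and 9 false calls. The named genes are all members, up to 4 called genes with the largest change of each other list per comparison, and Ppara, Ppargc1a, Esrra, Pdk4, Adipoq and Stk4. Ucp1 and Bmp10 were added after their values were seen. The members and lists were chosen with earlier results of these data known.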

Additional observations from a re-analysis of the deposited data

Results flagged for a closer look

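In 17 of the 156 groups of 4 animals examined, 1 animal stood apart from the other 3 by more than Dixon's criterion allows, and chance alone flags about 1 in 20 groups, or 7.8 of 156. Mst1 1466, whose left array had high Adipoq and the lowest correlation with the rest, was low for 6 genes. It read 8.17 log2 for Acadvl (the others 8.59 to 8.65), 9.78 for Acadl (10.36 to 10.41) and 10.26 for Acadm (10.58 to 10.63). It read 9.54 for Hadha (9.80 to 9.83), 9.47 for Acaa2 (9.71 to 9.76) and 6.77 for Lipe (7.14 to 7.16). All of these are genes that fell in Mst1, and of them Lipe was the call lost without this animal.

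Animal dnPI3K-Mst1 1647 was low for Fabp3 at 10.59 log2 (10.90 to 10.92) and Etfdh at 9.00 (9.44 to 9.49), and high for Plin5 at 5.65 (5.53 to 5.55). In dnPI3K, animal 3241 was high for Cpt1a at 9.04 (8.39 to 8.44) and Hadh at 9.71 (9.44 to 9.45). Animal 1648 was low for Acadvl at 8.95 (9.34 to 9.41) and high for Acot13 at 10.03 (9.79 to 9.81), and 1507 was low for Echs1 at 8.99 (9.18 to 9.19). In Ntg, animal 1657 was low for Hadh at 9.70 (10.04 to 10.10) and Etfa at 10.12 (10.32 to 10.35), and 1662 was high for Hadha at 10.94 (10.79 to 10.80).

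The effect of dnPI3K on Acsl6 differed between animals with and without Mst1, by 1.02 log2 (limma, adjusted p = 0.0013). It was -0.95 log2 in the absence of Mst1 and 0.07 in its presence. Acsl6 averaged 4.54 log2 in Mst1 and 4.61 in dnPI3K-Mst1, near the limit of 4.48 for the genes tested. How far a further fall could be read at that level was not tested. On arrays labelled left the difference was not called.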

How the results depend on the processing

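No result for the 39 genes changed direction after being called. Leaving out 1 animal at a time gave 33 to 35 genes lower in Mst1 against Ntg, 31 to 35 in dnPI3K-Mst1 against Ntg, 32 to 34 in dnPI3K-Mst1 against dnPI3K and 31 to 32 in Mst1 against dnPI3K. On arrays labelled left these 4 counts were 32, 32, 28 and 25, and on those labelled right 33, 30, 28 and 31. The labelled sides mix arrays high and low in Bmp10 in Ntg and Mst1, but not in the genotypes with dnPI3K. For dnPI3K against Ntg, the 4 genes lower became 1 on arrays labelled left and 2 on those labelled right, and 2 to 6 leaving out 1 animal. The 1 gene higher became 0 on the left arrays and stayed at 1 to 1 leaving out 1 animal. For dnPI3K-Mst1 against Mst1, 1 gene was lower with animal as a random block (0 to 0 leaving out 1 animal) and 1 higher without arrays of high Adipoq (0 to 1 leaving out 1 animal). For non-additivity, 1 gene was lower with median centring and 1 with the random block (0 to 1 leaving out 1 animal). There, 2 were higher with the random block, 0 on left arrays and 2 without arrays of high Adipoq (1 to 2 leaving out 1 animal). For arrays labelled right against those labelled left, leaving out 1 animal gave 0 to 2 lower and 0 to 1 higher. The causes were not tested. With quantile normalisation 217 genes in all fell and 401 rose in dnPI3K-Mst1 against Mst1, in place of 129 and 403. No paired analysis of the genotypes was possible because they share no animal numbers.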
